A study of Homo sapiens with 6 samples.

Results

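Annexins are proteins that bind acidic phospholipids when calcium is present, through a conserved core of repeats, and that differ mainly in their N-terminal tails. Several of them pair with small calcium-binding S100 proteins, they are found on the inner face of the plasma membrane and on endosomes, and they are known for roles in membrane repair, vesicle traffic and plasmin formation at the surface of cancer cells. ANXA1 is also a secreted ligand of the formyl peptide receptors and a known target of glucocorticoids. The family was read in ovarian cancer cell lines in which the focal adhesion adaptor Hic-5, the product of TGFB1I1 and a coactivator of nuclear receptors, was the target of knockdown or overexpression. Its 10 listed genes were chosen by their measured ratios in these same comparisons, so the ratios of the members are given below as a description, with no test. Probes carrying the gene name of a member numbered 13 of the 41000 probes on the array and covered 9 of the 10 genes. No probe carried the name ANXA8.

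The SKOV3 RNAs came from stable clones sh-S1 and sh-S2, labelled as knockdowns made with shRNAs to Hic-5 in the pLKO.1-puro vector under puromycin, and from a Ctrl clone that carried a scramble shRNA in that vector. The A2780s RNAs came from a pCMV-Hic-5 clone, stably transfected with human Hic-5 in the pCMV6 vector under neomycin, and from a Ctrl clone with the empty vector. SKOV3 and A2780s are human ovarian carcinoma lines. Each modified clone was hybridised against its Ctrl on 2 arrays with the Cy3 and Cy5 dyes exchanged, which gave 6 arrays, with those of each cell line on 1 slide of its own. The exchanged arrays of a clone hold the same RNAs and were averaged, so SKOV3 had n = 2 clones against 1 Ctrl RNA and A2780s had 1 clone and no replicate. Each line of cells was 1 clone, and nothing in the labels ties a value to repeated cultures, so the spread between clones leaves out that of the Ctrl.

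The targeted gene was examined first. TGFB1I1 gave log2 ratios over Ctrl of -0.16 and 0.12 on the arrays labelled sh-S1 and of -0.12 and 0.28 on those labelled sh-S2, a mean of 0.03 ± 0.07 (SD, n = 2). The array therefore did not show lower Hic-5 mRNA in either RNA that carries a knockdown label, and the directions below are those of the labels. That reading rests on 1 probe, whose normalized log2 level was 8.22 in the SKOV3 Ctrl, 8.45 in sh-S1 and 8.06 in sh-S2. It was 12.8 in the A2780s Ctrl, which is another cell line on another slide. Spots of this probe cleared the background limit in the SKOV3 Ctrl (4 of 4 arrays), sh-S1 (2 of 2) and sh-S2 (2 of 2). Whether its level in SKOV3 was too low to show a fall was not tested. The paper reports that the knockdown clones were selected on their Hic-5 mRNA and protein. In A2780s the TGFB1I1 ratios were 4.05 and 2.60, a 10.0-fold higher level in pCMV-Hic-5. In the SKOV3 arrays Cy5 was much dimmer than Cy3, with median signals above background of 9.52 to 25.5 against 373 to 530, while in A2780s both dyes lay between 325 and 568. Of 9 markers of epithelial ovarian cancer, 4 to 7 were well above background in each RNA, with KRT8, KRT18, KRT19 and PAX8 above it in each of the 5 and CDH1 in none. Of 6 markers of other cell types (leukocytes, endothelium and fibroblasts), 1 to 4 were, with CD14 above it in each RNA and PECAM1 and LUM in none. The part of these markers in the annexin values was not tested.

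The probes are 60 bases long, and their sequences show what each value reads. The probes of ANXA2, ANXA3, ANXA6 and 1 probe of ANXA11 lie in the coding part of the same conserved region near the end of the annexin core, so they are set beside one another. In the ANXA3, ANXA6 and ANXA11 probes the capitals mark bases equal to the ANXA2 probe in the best ungapped alignment.
ANXA2 A_23_P146644: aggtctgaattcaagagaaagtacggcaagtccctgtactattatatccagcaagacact
ANXA3 A_23_P121716: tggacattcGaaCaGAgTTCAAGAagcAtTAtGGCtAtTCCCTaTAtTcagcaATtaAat
ANXA6 A_23_P357104: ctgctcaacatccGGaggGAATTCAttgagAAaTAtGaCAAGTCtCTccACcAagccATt
ANXA11 A_23_P35399: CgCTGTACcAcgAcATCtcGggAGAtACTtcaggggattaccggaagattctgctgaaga
The ANXA3 probe shared 29 of 52 aligned bases with that of ANXA2, the ANXA6 probe 27 of 48 and the ANXA11 probe 19 of 29. No pair of probes for the members and their relatives shared a run longer than 9 bases. In hg19 the ANXA2 probe reads chr15:60639880-60641324 on the minus strand and the ANXA3 probe chr4:79525495-79531210 on the plus strand, and both, like the ANXA11 probe at chr10:81915629-81917416 on the minus strand, cross an intron. The ANXA6 probe lies at chr5:150483134-150483193 on the minus strand.

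The ANXA1 probe and the other ANXA2 probes lie further towards the end of the transcript, and their first 30 bases are shown because the ANXA2 probes gave unequal values. In the ANXA1 probe the capitals mark the stop codon, from base 20 of the probe, which lies at chr9:75785002-75785061 on the plus strand of hg19.
ANXA1 A_23_P94501: ggctctttgtggaggaaacTAAacattccc
ANXA2 A_32_P94798: agaaatggtgctcaccatgcttccagctaa
ANXA2 A_32_P148345: taagccaaagaaatgtacattccaagcagt
The A_32_P94798 probe covers chr15:60639746-60639805 and the A_32_P148345 probe chr15:60639588-60639647, both on the minus strand, so the second lies nearer the end of the transcript.

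In SKOV3, 5 of the 9 annexin genes had a probe whose mean ratio was more than 2-fold lower in the clones labelled as knockdowns than in Ctrl. ANXA1 was 32.2-fold lower, ANXA3 13.9-fold, ANXA2 5.04-fold on its coding probe, ANXA4 3.09-fold and ANXA7 2.42-fold. ANXA6 lay in the other direction and was 1.99-fold higher, just under the limit. Of 13 probes 11 passed the filter on dim signals and had a value for both clones, and 5 of these met the rule used for calls across the array, a 2-fold difference and an adjusted p of at most 0.05 by limma. By that rule 4.16% of the 24958 probes tested were lower and 2.98% higher. Since the family was selected on this comparison, the count is a description and no test of the members, and nothing is read from it against those shares. The median log2 ratio was -0.66 over the 11 probes and 0.00167 over all tested probes.

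**Figure D1:**
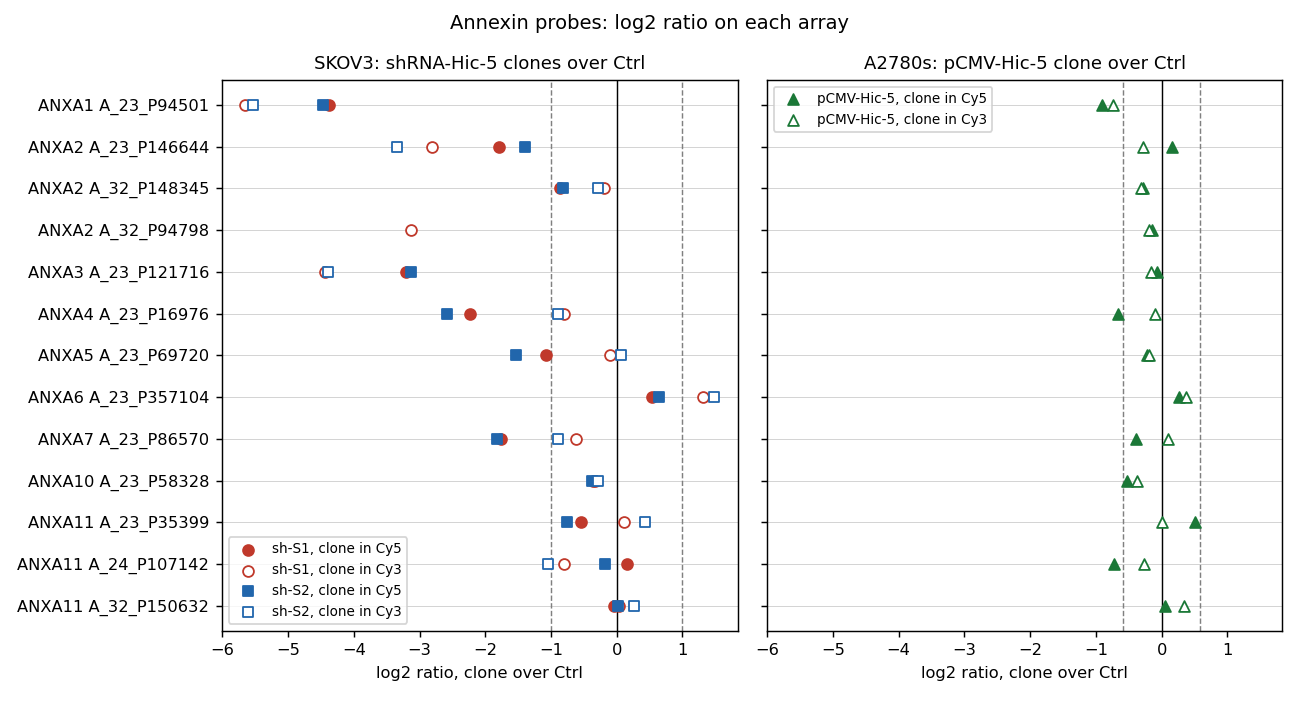
Log2 ratio of modified clone over Ctrl (x axis) for each of the 13 annexin probes (y axis) on the 4 SKOV3 arrays (left) and the 2 A2780s arrays (right), 1 point an array, filled with the clone in Cy5 and open with the clone in Cy3. Dashed lines mark 2-fold on the left and 1.5-fold on the right. ANXA1 and ANXA3 lie below -3 on each SKOV3 array, ANXA6 lies above 0, and the A2780s points stay between -0.91 and 0.51.

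ANXA1, which blocks phospholipase A2 activity and neutrophil entry as a secreted ligand, was far lower in both clones. Its log2 ratios were -4.38 and -5.65 in sh-S1 and -4.47 and -5.54 in sh-S2, with the clone in Cy5 and Cy3 respectively. The mean was -5.01 ± 0.0087 (SD, n = 2), and 4 of the 24958 tested probes had a lower one. As scanned, the Cy3 signal was 65096 and 53126 in Ctrl when the clones were in Cy5, and 934 and 1246 in the clones when they were in Cy3. The Cy5 signal was 83.5 and 91.7 in the clones and 3291 and 3844 in Ctrl. No member spot was saturated. On the normalized log2 scale the channel level of the probe was 14.5 to 14.7 in Ctrl on 4 arrays, 9.05 and 10.3 in sh-S1 and 9.01 and 10.2 in sh-S2. The levels of the clones and the Ctrl did not overlap, on arrays that repeat the same RNAs. The share of all probes without such overlap was not counted, so nothing is read from this.

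ANXA3, an annexin long known as lipocortin III, followed it in size. It stood at -3.21 and -4.44 in sh-S1 and at -3.13 and -4.39 in sh-S2, a mean of -3.79 ± 0.047. Its signal passed the background limit on 4 of 4 arrays in Ctrl, on 1 of 2 in sh-S1 and on 2 of 2 in sh-S2. With the scanner's processed signals in place of the normexp correction its ratio was -5.54.

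ANXA2, which binds S100A10 in a heterotetramer that carries plasminogen and tissue plasminogen activator at the cell surface, gave unequal values on its 3 probes. The coding probe A_23_P146644 stood at -1.78 and -2.81 in sh-S1 and at -1.40 and -3.34 in sh-S2, a mean of -2.33 ± 0.049. The end probe A_32_P148345 stood at -0.86 and -0.19 in sh-S1 and at -0.82 and -0.29 in sh-S2, a mean of -0.54 ± 0.021, which was 1.45-fold. Both lay below 0 on each of the 4 arrays, and they differed by more than the spread between clones. The probe between them, A_32_P94798, was marked as non-uniform by the scanner software on 3 of the 4 SKOV3 arrays and was not tested, and its remaining value was -3.13, in sh-S1. With the marked spots kept, its values were -0.58 and -3.13 in sh-S1 and -1.08 and -3.55 in sh-S2, a mean of -2.09.

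Transcripts of ANXA2 pseudogenes share most of their sequence with ANXA2 and may contribute to each other's probes. The ANXA2P1 probe stood at -1.57 in sh-S1 and -1.71 in sh-S2, and the ANXA2P3 probe at -0.68 and -1.11. How far these values come from ANXA2 itself cannot be told apart.

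ANXA4 and ANXA7 made up the rest of the lower group. ANXA4, which is abundant in secretory epithelium, stood at -2.23 and -0.80 in sh-S1 and at -2.59 and -0.90 in sh-S2, a mean of -1.63 ± 0.16. ANXA7, also called synexin and able to fuse granule membranes, stood at -1.77 and -0.62 in sh-S1 and at -1.82 and -0.90 in sh-S2, a mean of -1.27 ± 0.12. Both were below 0 on each array. Their values on the arrays with the clones in Cy3 alone, -0.85 and -0.76, fell short of the 2-fold limit.

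ANXA6, which takes part in cholesterol traffic and in the recruitment of Ras GTPase activating proteins, was higher in both clones. It stood at 0.53 and 1.31 in sh-S1 and at 0.64 and 1.48 in sh-S2, a mean of 0.99 ± 0.099. All 4 arrays lay above 0. The probe passed the 2-fold limit with median centring in place of loess, at 1.13, with the processed signals, at 1.67, with the clones in Cy3 alone, at 1.40, and without the clone sh-S1, at 1.06.

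The other members stayed under the limit. ANXA5, the phosphatidylserine binder used to stain apoptotic cells, stood at -1.07 and -0.10 in sh-S1 and at -1.53 and 0.06 in sh-S2. Its mean was -0.66 ± 0.11, and it depended on the dye, with -1.30 on the arrays with the clones in Cy5 alone and -0.016 with the clones in Cy3 alone. ANXA11, which links RNA granules to lysosomes, had 2 tested probes, at -0.19 ± 0.029 for the coding probe and at -0.47 ± 0.20 for A_24_P107142. The coding probe lay below 0 with the clones in Cy5 and above it with the clones in Cy3. The third ANXA11 probe, A_32_P150632, passed the background limit on 2 of 4 arrays in Ctrl and was not tested, and its ratios lay between -0.05 and 0.26. ANXA10, a gastric annexin, was dim, above background on 1 of 2 arrays in each clone, and stood at -0.34 ± 0.016. With the processed signals its ratio was -1.53, past the limit.

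**Figure D2:**
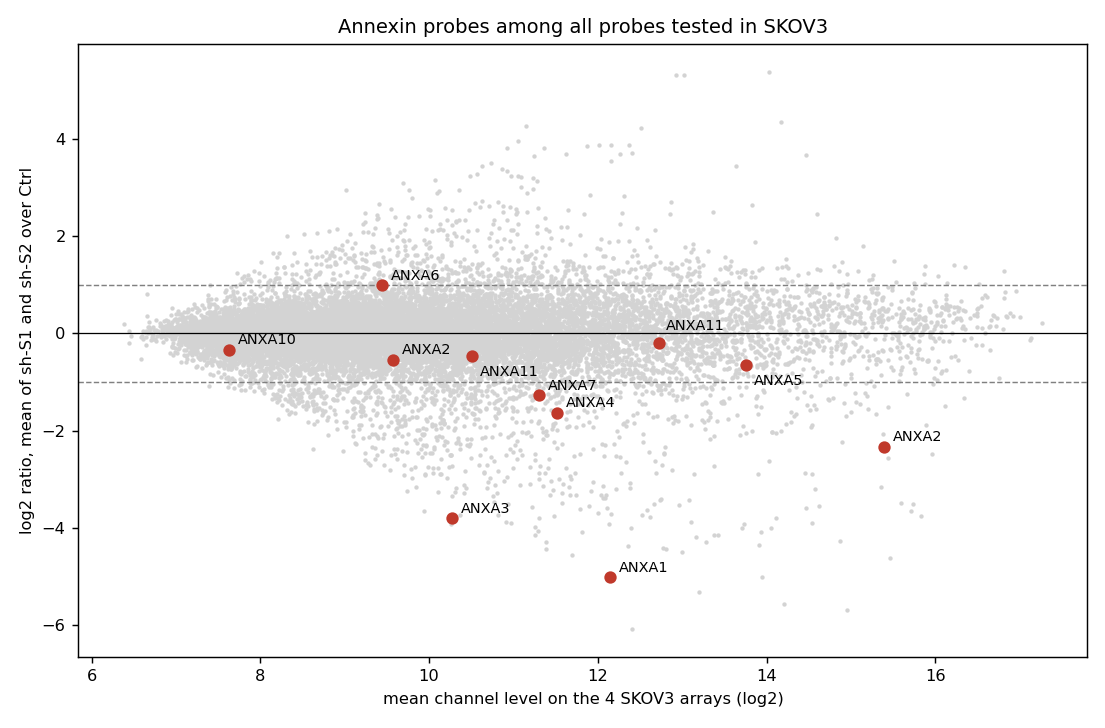
Mean log2 ratio of sh-S1 and sh-S2 over Ctrl (y axis) against the mean channel level on the 4 SKOV3 arrays (x axis, log2) for all 24958 tested probes (grey) and the 11 tested annexin probes (red), with dashed lines at 2-fold. ANXA1 at -5.01 and ANXA3 at -3.79 lie at the lower edge, and ANXA6 at 0.99 touches the upper line.

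The clones differed from each other by less than the dyes did. The log2 ratio of sh-S2 minus that of sh-S1 was at most 0.29 in size over the 11 tested annexin probes, for A_24_P107142 of ANXA11. The gap between dye orientations, taken on the mean of both clones, had a median of 1.03 over those probes and of 0.32 over all tested probes, and reached 1.56 for ANXA4. The tested probes of ANXA1, ANXA2, ANXA3, ANXA4, ANXA7 and ANXA10 were below 0 on all 4 arrays. The share of all tested probes that did so was not counted, so nothing is read from this list. Within the orientation with the clones in Cy5, sh-S2 minus sh-S1 was -0.46 for ANXA5 and 0.39 for the coding ANXA2 probe, and with the clones in Cy3 it was 0.16 and -0.53, so neither kept its sign.

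**Figure D3:**
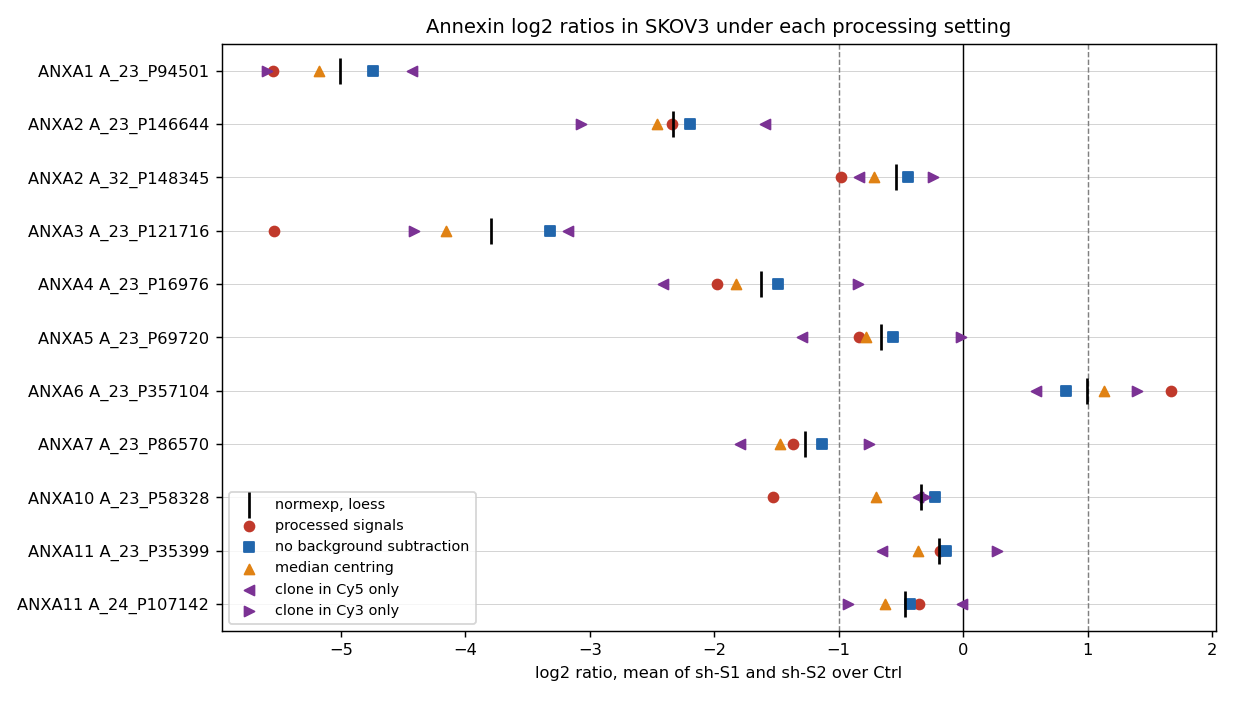
Mean log2 ratio of sh-S1 and sh-S2 over Ctrl (x axis) of each tested annexin probe (y axis) under the correction used here (black bars, normexp and loess) and under 5 other settings (coloured points), with dashed lines at 2-fold. ANXA1, ANXA3 and the coding ANXA2 probe stay below -1 at each setting shown, ANXA6 crosses the upper line at 3 of them, and ANXA10 moves to -1.53 with the processed signals.

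In A2780s the pCMV-Hic-5 clone had lower ANXA1 than its Ctrl and no other kept member past the 1.5-fold limit in the same direction on both arrays. The ANXA1 ratios were -0.91 and -0.73, a 1.76-fold lower level with no replicate. That was 1 of 12 kept annexin probes, where 1.32% of the 30531 kept probes were lower and 3.26% higher by the same rule. The ANXA1 signals as scanned were low, between 324 and 650. Its mean log2 ratio was -0.98 with the processed signals and -0.59, just past the limit, with normexp fitted on all spots. The ANXA11 probe A_24_P107142 stood at -0.73 and -0.26, ANXA10 at -0.53 and -0.37, and ANXA4 at -0.66 and -0.10. ANXA6 stood at 0.27 and 0.37. The 3 ANXA2 probes lay between -0.32 and 0.16. ANXA3 passed the background limit on 1 of 2 arrays in each A2780s RNA and was not kept. The median over the 12 probes was -0.19, against -0.0073 over all kept probes.

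Levels were then compared between the RNAs, each probe with itself and each dye with itself, after both channels had been put on 1 scale. Cell line and slide cannot be told apart in this comparison. The SKOV3 Ctrl had 78.3-fold more ANXA1 than the A2780s Ctrl, 43.8-fold more ANXA3, 8.59-fold more ANXA2 by the coding probe and 2.09-fold more ANXA7, and 2.41-fold less ANXA6. ANXA3 passed the background limit on 1 of 2 arrays in the A2780s Ctrl. Of 12 probes 6, those of ANXA1, ANXA3, ANXA7, 2 of ANXA2 and A_24_P107142 of ANXA11, were 2-fold higher in the SKOV3 Ctrl on the mean of the dyes with the same direction in both, against 9.25% of all probes, and 1, that of ANXA6, was lower, against 8.26%. The SKOV3 knockdown-labelled clones stood on average closer to the A2780s Ctrl than the SKOV3 Ctrl did in ANXA1, ANXA2, ANXA5, ANXA6, ANXA7 and ANXA11, and further from it in ANXA4 and ANXA10. The share of all probes that moved closer was not counted. With Cy5 alone ANXA5 was further away, at 0.05 in the SKOV3 Ctrl and -0.37 in the clones. The coding ANXA11 probe was no closer with Cy5, at -0.11 and -0.12. ANXA3 did not pass the background filter of the clone comparison. The log2 difference from the A2780s Ctrl was 0.64 in the SKOV3 Ctrl and -0.99 in the clones for ANXA4, and 0.14 and -0.19 for ANXA10, whose sign differed between dyes in both. The clones had 2.43-fold more ANXA1, 1.71-fold more ANXA2 by the coding probe, 1.16-fold less ANXA7 and 1.21-fold less ANXA6 than the A2780s Ctrl, and 1.98-fold less ANXA4. The ANXA6 difference changed sign between dyes, at 0.35 and -0.91. By the same rule 1 of 11 probes, that of ANXA1, was higher in them than in the A2780s Ctrl, at 0.70 with 1 dye and 1.86 with the other on the log2 scale, against 4.07% of all probes. The comparison of the SKOV3 clones and that of the A2780s Ctrl share the SKOV3 Ctrl, so their values are only set side by side.

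**Figure D4:**
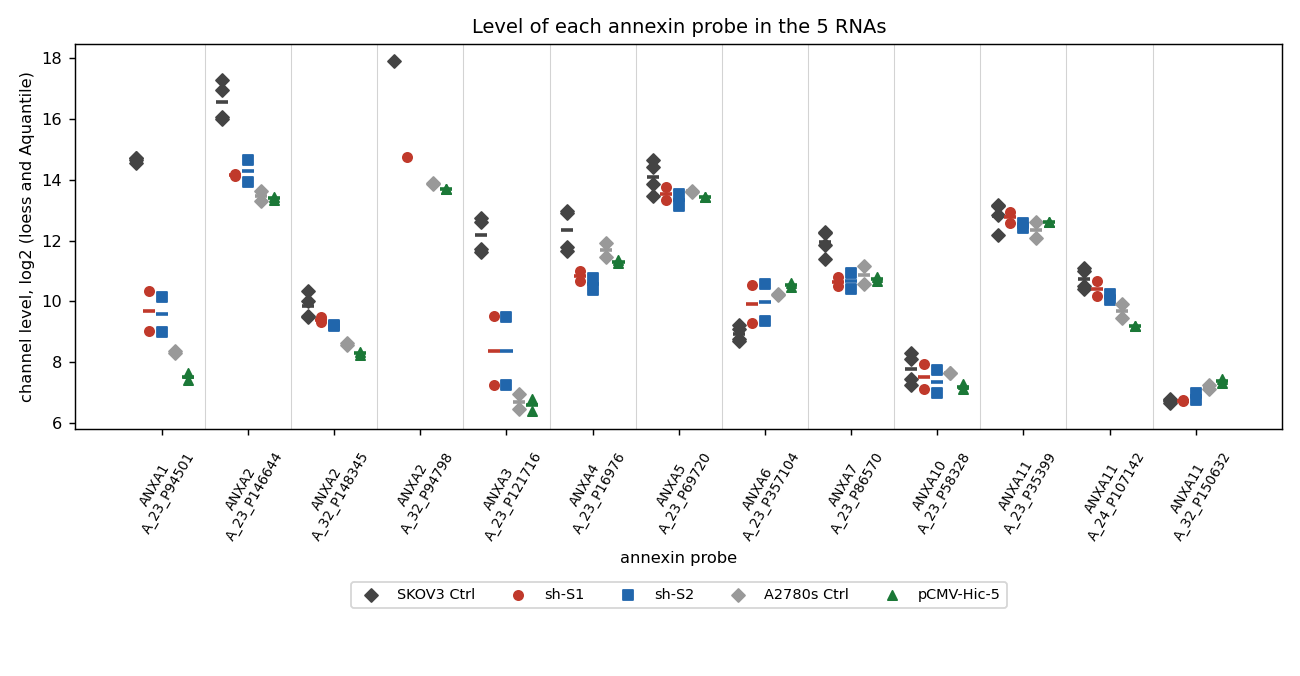
Normalized channel level (y axis, log2) of each annexin probe (x axis) in the SKOV3 Ctrl (4 arrays), sh-S1, sh-S2, A2780s Ctrl and pCMV-Hic-5 (2 arrays each), 1 point an array and a bar at the mean, except that A_32_P94798 of ANXA2 had a value on 1 SKOV3 array. Levels compare RNAs within a probe and not probes with each other. ANXA1 stands at 14.5 to 14.7 in the SKOV3 Ctrl and at or below 10.3 in the other RNAs.

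The order of the ANXA1 levels was SKOV3 Ctrl, then sh-S1 and sh-S2, then A2780s Ctrl, then pCMV-Hic-5. The means were 14.6, 9.69, 9.58, 8.36 and 7.54, and sh-S1 and sh-S2 did not differ beyond the spread of their arrays. The order for ANXA6 ran the other way in SKOV3, with 8.95 in Ctrl, 9.91 in sh-S1 and 9.97 in sh-S2, and with 10.2 in the A2780s Ctrl and 10.54 in pCMV-Hic-5. ANXA5 had means from 13.3 in sh-S2 to 14.1 in the SKOV3 Ctrl, with overlapping arrays, and the coding ANXA11 probe had means from 12.4 in the A2780s Ctrl to 12.8 in the SKOV3 Ctrl.

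Relatives outside the listed family were read next. A probe named ANXA8L1, A_32_P105549, also matches transcripts of ANXA8 by the accessions the files give it, so the 2 genes cannot be told apart there. It stood at -1.79 in sh-S1 and -2.12 in sh-S2, a 3.88-fold lower level, and its level was 21.7-fold higher in the SKOV3 Ctrl than in the A2780s Ctrl. The other ANXA8L1 probe was dim and stood at -0.23 and -0.24. ANXA9 passed the background limit on 2 of 4 arrays in the SKOV3 Ctrl and was not tested.

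The genes that act with annexins were taken as a list of 26, with 23 tested in SKOV3. The list was chosen with earlier results of these data known, so the counts and p-values below describe its genes and do not test the list. limma called 9 of them lower and 0 higher, where 4.16% of all tested probes were lower and 2.98% higher. Those shares count single probes, while each gene was read by its brightest tested probe. At an unadjusted limma p under 0.05, 12 were lower and 3 higher, and the share of all probes at that limit was not counted. The median log2 ratio of the 23 genes was -0.50, against 0.00167 over all tested probes. Of 4 S100 partners 4 were called lower. S100A10, which pairs with ANXA2 in the heterotetramer, stood at -4.09 in sh-S1 and -4.10 in sh-S2, with a mean of -4.09 ± 0.0098 and an adjusted p of 2.58e-06. S100A6 stood at -5.68 ± 0.054 (adjusted p = 2.58e-06) and S100A4 at -2.88 ± 0.38 (adjusted p = 2.40e-05). S100A11, which binds the tail of ANXA1, stood at -1.98 ± 0.13 (adjusted p = 2.74e-05).

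Each of the other roles had at most 1 gene called. The receptors of ANXA1 were not called, with FPR1 at 0.08 ± 0.018 (adjusted p = 0.598) and FPR2 at 0.0030 ± 0.10 (adjusted p = 0.987), and both passed the background limit on 4 of 4 arrays in Ctrl. Of 3 genes of plasmin generation PLAU, which encodes urokinase, was called lower at -2.77 ± 0.20 (adjusted p = 9.85e-06). Of 5 kinases that act on annexins PRKCA, a protein kinase C gene, was called lower at -1.41 ± 0.049 (adjusted p = 8.92e-05), and its 2 tested probes stood at -1.41 and -0.55. NR3C1, the glucocorticoid receptor, was called lower at -2.71 ± 0.054 (adjusted p = 6.74e-06), with its other probe at -1.40. The called probe passed the background limit on 4 of 4 arrays in Ctrl, 1 of 2 in sh-S1 and 2 of 2 in sh-S2. TSC22D3, the glucocorticoid target listed with it, was not called, at 0.012 ± 0.24 (adjusted p = 0.954). Of 3 genes of phosphatidylserine scrambling PLSCR1 was called lower at -1.55 ± 0.18 (adjusted p = 9.91e-05). AHNAK, the scaffold that binds ANXA2 with S100A10, was called lower at -2.10 ± 0.83 (adjusted p = 0.00105), but its 4 tested probes ranged from -2.10 to -0.17. In A2780s 2 of 22 kept partner genes were past 1.5-fold, both lower, where 1.32% of all kept probes were lower and 3.26% higher, with AHNAK at -0.90 and -0.68 and PLA2G4A, a cytosolic phospholipase A2, at -0.72 and -0.52.

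**Figure D5:**
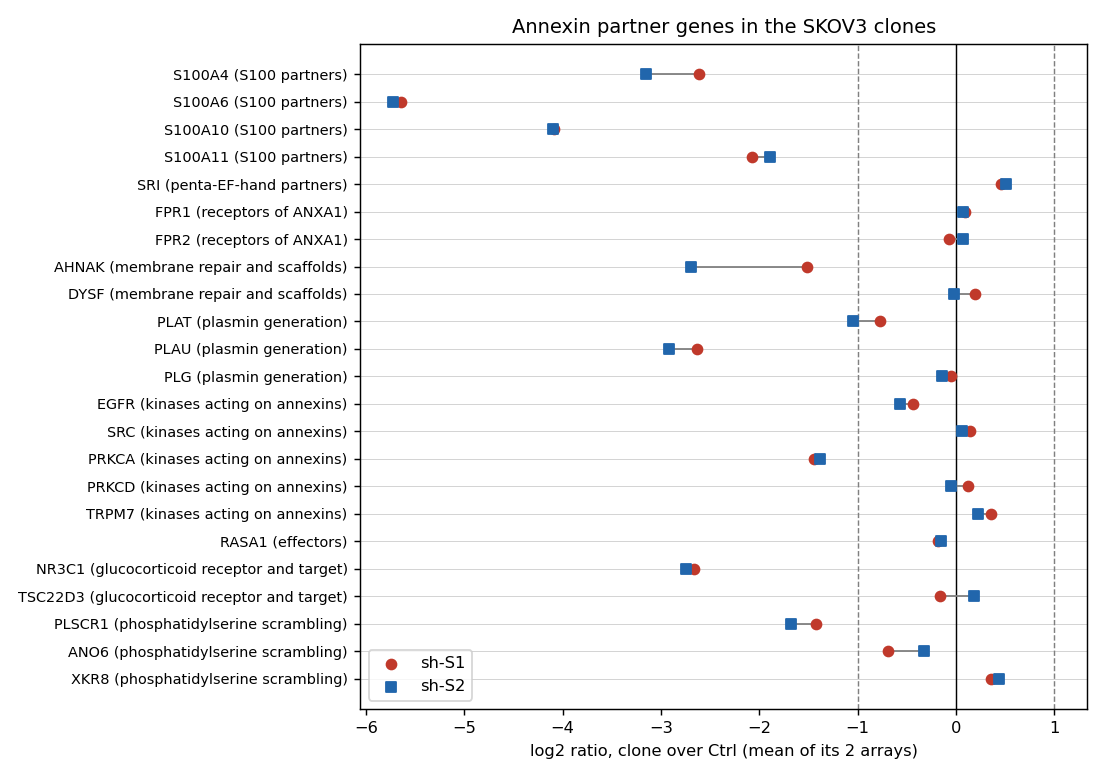
Log2 ratio over Ctrl (x axis) of 23 annexin partner genes (y axis, with their role) in sh-S1 (circles) and sh-S2 (squares), each the mean of 2 arrays, with dashed lines at 2-fold. The S100 genes lie between -1.89 and -5.72, and FPR1 and FPR2 lie within 0.1 of 0.

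The genes whose pattern over the 6 arrays was most like that of ANXA1 were PODXL, GPX1, S100A2, OCIAD2 and C19orf33, among 16755 genes with 1 probe each. Their Euclidean distances to ANXA1 in log2 ratio ran from 1.46 for PODXL to 1.96 for C19orf33. Their log2 ratios lay between -7.02 and -3.13 on the SKOV3 arrays and between -0.84 and 0.24 on the A2780s arrays.

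The promoters of the members were unlike in base composition. RefSeq promoters in GRCh38.p14 were given for 9 of the 10 genes, with 13 starts, and the 250 bases before each start were searched on both strands for TGAGTCA, an AP-1 motif, for TATAAA, the TATA box, and for GGGCGG, a GC box. The ANXA1 promoter held 38.4% G and C and no CpG and that of ANXA10 31.2% and none, where the median of 35116 promoters was 58%. The others held 50% to 78.8%. TATAAA was found before ANXA1, ANXA2, ANXA10 and 1 start of ANXA11, against 10.72% of all promoters, and TGAGTCA before ANXA2, against 4.20%. GGGCGG was found before ANXA2, ANXA5, ANXA7, both starts of ANXA4, 1 start of ANXA6 and 1 start of ANXA11, against 42.6% of all promoters. The ANXA1 and ANXA2 promoters are shown because they belong to the members with the lowest ratio and with the AP-1 motif. The capitals mark TATAAA, which starts 31 bases before the transcript start in both, and TGAGTCA. The ANXA1 stretch is chr9:73151615-73151864 on the plus strand and the ANXA2 stretch chr15:60397987-60398236 on the minus strand.
ANXA1: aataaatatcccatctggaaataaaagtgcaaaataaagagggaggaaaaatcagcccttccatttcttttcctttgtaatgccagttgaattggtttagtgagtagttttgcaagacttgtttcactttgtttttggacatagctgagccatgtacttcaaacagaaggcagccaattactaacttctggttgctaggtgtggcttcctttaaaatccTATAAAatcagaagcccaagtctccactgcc
ANXA2: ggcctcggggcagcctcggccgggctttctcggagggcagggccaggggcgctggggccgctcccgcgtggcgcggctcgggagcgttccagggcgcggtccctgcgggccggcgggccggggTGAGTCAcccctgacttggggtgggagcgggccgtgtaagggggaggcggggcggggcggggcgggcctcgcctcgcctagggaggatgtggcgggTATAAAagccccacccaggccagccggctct
A match is a run of letters and was not tested as a binding site.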

How the data were processed

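RNA of the clones was labelled by the authors with Cy3 or Cy5 and hybridised to Agilent Whole Human Genome arrays. The deposited scanner files hold intensity values per spot (mean signal, local background and a processed signal) and a log10 ratio of Cy5 over Cy3, and the deposited value table repeats those log10 ratios (r = 0.999999 on each array), so scale, centring and dye direction are known. Per the file headers Feature Extraction 10.7.3.1 was used, whereas the submitters' processing notes give 8.5.1.1.

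Mean signals were corrected with normexp (offset 50), fitted without spots marked for background, and spots with a local background above 1000 were left out (39 on 1 A2780s array). Ratios were normalized by loess within arrays, with control and outlier-marked spots excluded, averaged per probe and turned to clone over Ctrl. Channel levels were scaled with Aquantile. A probe was kept when well above background in the Ctrl on each array of the line, or on both arrays of a clone in that clone. In SKOV3 the mean of the 2 clones was tested against 0 with limma 3.58.1 in R 4.3.3, two-sided, with Benjamini-Hochberg adjustment over all tested probes, and called at 0.05 and 2-fold. The ratio against 0 leaves out the spread of the Ctrl. A2780s, with 1 replicate, was called at 1.5-fold with the same sign on both arrays. Precision is limited because few arrays were made. Each p-value rests on the spread of a probe between the 2 clones, moderated by limma with the spread of all tested probes. The prior degrees of freedom were 5.57. For ANXA1 the SD over clones was 0.0087, while the moderated standard error was 0.093. The p-values apply to these 2 clones and to no wider set of clones. The fit was run on simulated data with 2 independent values per probe, which does not cover the shared Ctrl RNA, the shared slide or the dye gap.

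The text names each probe of the members, the relatives, the partner genes called or listed for S100 and formyl peptide receptors, TSC22D3, and the 5 genes nearest to ANXA1, with 1 probe per partner gene, the brightest tested. Members, lists and rules were chosen with earlier results of these data known. Alternatives were processed signals, no background subtraction, median centring, no filter on dim probes, single dye orientations, normexp on all spots, each clone left out and, added after the data were seen, outlier-marked spots kept.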

Additional observations from a re-analysis of the deposited data

How the results depend on the processing

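Each ratio sets a clone against its Ctrl on the same array, so the test of the ratios against 0 is a paired one. The 2 cell lines were not paired with each other. Over all probes, SKOV3 calls were 743 higher and 1038 lower, against 1971 and 2356 with the scanner's processed signals, 1578 lower with median centring, and 1222 higher with the clones in Cy3 alone. Leaving out 1 clone, a value with no test, gave 776 to 835 higher and 981 to 1158 lower. For the annexin probes, 5 were lower and 0 higher. With the clones in Cy3 alone 3 were lower, where ANXA4 and ANXA7 missed the limit, and 6 with the clones in Cy5 alone (ANXA5 added), with the processed signals (ANXA10 added) and with outlier-marked spots kept. ANXA6, 1 probe, was higher with the processed signals, with median centring and with the clones in Cy3 alone, and leaving out a clone gave 0 to 1 higher and 5 lower. The partner genes kept a count of 9 to 11 lower and 0 higher. A2780s calls were 994 higher and 403 lower, against 700 lower with the processed signals, 1797 higher and 1519 lower when the Cy5 array of the clone was used alone and 214 lower when the Cy3 array was. The annexin count there was 1 lower, 2 with the processed signals (ANXA1 and ANXA10) and 3 with the clone in Cy5 alone (ANXA1, ANXA4 and ANXA11). In A2780s the coding ANXA2 probe turned from -0.062 to 0.16 with the clone in Cy5 and ANXA7 from -0.14 to 0.095 with the clone in Cy3. In SKOV3 direction turned for the coding ANXA11 probe with the clones in Cy3 (0.27), for FPR1 with the clones in Cy3 (-0.51), for FPR2 with the processed signals (-0.0051), with the clones in Cy5 (-0.10) and without sh-S2 (-0.069, against 0.075 without sh-S1), and for TGFB1I1 with the clones in Cy5 (-0.14) and without sh-S2 (-0.021, against 0.083 without sh-S1). The cause of these changes was not tested. The precision is limited by n = 2 clones that share 1 Ctrl RNA, by the dim Cy5 signal in SKOV3, and by 1 clone in A2780s.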
